A study of Mus musculus with 20 samples.

Results

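Ribonuclease P (RNase P) and ribonuclease MRP (RNase MRP) are a pair of related enzymes built around an RNA, and the genes described here are their components: the RNA genes Rpph1 and Rmrp and the protein genes Pop1, Pop4, Pop5, Pop7, Rpp25, Rpp30, Rpp38 and Rpp40. They were taken by symbol, and the 10 components were 10 of the 23402 rows of the expression table. Of the 10, 9 had a mean of at least 0.5 FPKM (fragments scaled by transcript length and by library size) and were tested, and Rpp25 fell below that level. The libraries came from tumours grown under the skin of mice from MC38, a mouse colon adenocarcinoma line. The Control group held 10 libraries of vehicle-treated tumours, and the P.T.ATBx group held 10 libraries of tumours treated peri-tumorally, that is around the tumour, with ATBx. ATBx commonly abbreviates antibiotic treatment, and the labels give no agent, dose, schedule, mouse strain or age. RNA was sequenced as stranded total RNA, a method that keeps transcripts without a poly(A) tail. The labels do not tie libraries to separate animals, so the p-values cover only the spread between these samples, part of which may be technical.

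RNase P cuts the 5′ leader from precursor transfer RNAs, and its RNA, encoded by Rpph1, forms the catalytic core. RNase MRP, whose RNA is encoded by Rmrp, cuts the precursor of ribosomal RNA within its first internal spacer, and mutations of the human gene cause cartilage-hair hypoplasia. Both RNAs are made by RNA polymerase III from promoters that lie upstream of the transcribed part, carry no poly(A) tail and share most of their protein subunits.

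The RNA components are printed first because they carry the largest values in the table and the widest fold spread of the 9 tested components. Rpph1 lies on the minus strand at chr14:50807449-50807767 and Rmrp on the minus strand at chr4:43492788-43493058, in the ribozyme models of GENCODE M21 for GRCm38 (mm10). The Rpph1 model has 319 bases with a GC content of 67.1%, of which the first 300 are shown, and the Rmrp model has 271 bases with a GC content of 64.2%. Capitals mark the 9-base runs that the RNAs share, which sit at bases 17 to 25 and 246 to 254 of Rpph1 and at bases 183 to 191 and 221 to 229 of Rmrp, counted from each 5′ end.
Rpph1: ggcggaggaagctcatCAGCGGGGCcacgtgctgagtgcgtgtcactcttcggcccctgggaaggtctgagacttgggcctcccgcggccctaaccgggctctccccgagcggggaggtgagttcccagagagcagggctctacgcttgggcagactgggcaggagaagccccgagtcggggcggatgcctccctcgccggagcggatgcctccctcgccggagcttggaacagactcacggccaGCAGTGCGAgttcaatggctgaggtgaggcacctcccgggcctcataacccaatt
Rmrp: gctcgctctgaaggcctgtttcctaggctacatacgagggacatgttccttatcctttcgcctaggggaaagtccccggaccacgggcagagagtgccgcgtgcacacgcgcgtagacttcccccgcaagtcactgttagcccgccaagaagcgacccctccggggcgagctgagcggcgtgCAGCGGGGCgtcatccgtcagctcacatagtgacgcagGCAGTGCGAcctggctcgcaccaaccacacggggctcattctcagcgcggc

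Each RNA gene stands head to head with a protein-coding gene on the plus strand, Parp2 (a DNA repair enzyme) beside Rpph1 and Ccdc107 beside Rmrp. In the RefSeq models of GRCm38.p6, 125 bases separate Rpph1 from Parp2 and 280 bases separate Rmrp from Ccdc107. Sequence between the genes is shown because the promoters of the RNA genes lie upstream of them: all of chr14:50807772-50807896 (GC content 49.6%) and, beside Ccdc107, chr4:43493115-43493339 (GC content 41.3%), which does not reach the bases next to Rmrp, both read on the plus strand from the RefSeq promoter table. Capitals mark the octamer ATTTGCAT or its reverse complement ATGCAAAT, the motif known to bind the factor Pou2f1 (Oct-1).
Rpph1 to Parp2: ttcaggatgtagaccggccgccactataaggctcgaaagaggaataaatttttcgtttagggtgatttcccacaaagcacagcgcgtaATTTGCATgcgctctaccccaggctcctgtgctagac
Upstream of Ccdc107: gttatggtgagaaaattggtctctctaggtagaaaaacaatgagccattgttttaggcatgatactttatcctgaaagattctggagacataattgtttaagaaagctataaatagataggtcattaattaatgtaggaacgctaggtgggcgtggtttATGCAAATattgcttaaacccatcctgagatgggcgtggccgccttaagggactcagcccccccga
The octamer begins 89 bases from the start of Rpph1 in its RefSeq model (50807771) and 215 bases from that of Rmrp (43493059). On either strand it is present in 570 of 32851 promoter windows of 300 bases (1.74%), so that a match is a description of these letters and not a measured binding site. Where the GENCODE models are used instead, Parp2 begins at 50807841 and Ccdc107 at 43492900. The octamers, at chr14:50807860-50807867 and chr4:43493274-43493281, then lie inside those genes, and the stretches shown do not lie wholly between genes. In these models Ccdc107 overlaps Rmrp on the opposite strand. Neither the model nor the use of strand in the authors' quantification is given in the sources used here, so how reads in such an overlap were assigned is not known. Ccdc107 averaged 18.4 FPKM over the 20 libraries, and the lowest Rmrp value was 24170 FPKM.

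The RNA components held the 2 highest FPKM values of the whole table in every library. In Control, Rpph1 had a lowest value of 18664, a median of 33724 and a highest value of 85189 FPKM. In P.T.ATBx the corresponding values were 26931, 36253 and 76630 FPKM. The lowest and the highest Rpph1 value both came from Control, in Control 2 and Control 1, and the P.T.ATBx values lay between them. The span from lowest to highest was 4.56-fold. Rmrp had a lowest value of 24468, a median of 31117 and a highest value of 69007 FPKM in Control. In P.T.ATBx it had 24170, 33273 and 43956 FPKM. Control 1 was again the highest library, no P.T.ATBx library came near it, and the remaining values of both groups overlapped over a span that was 2.86-fold with Control 1 included.

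Neither RNA differed between the groups beyond the spread of the libraries. Rpph1 averaged 40834 ± 18678 FPKM in Control against 41556 ± 15220 in P.T.ATBx (SD, n = 10 each). Its difference, taken as P.T.ATBx minus Control in log2(FPKM + 1), was 0.07 (SE 0.22, 95% interval −0.40 to 0.53, limma adjusted p = 0.930), and the Control median was exceeded in 6 of 10 P.T.ATBx libraries. Rmrp averaged 34450 ± 13218 FPKM in Control against 33546 ± 6470 in P.T.ATBx (SD, n = 10 each). Its difference was 0.0085 (SE 0.16, 95% interval −0.32 to 0.34, limma adjusted p = 0.990), and here too the Control median was exceeded in 6 of 10. The signs of both differences turned when Control 2 or P.T.ATBx 1 was left out, with −0.044 and −0.037 for Rpph1 and −0.038 and −0.037 for Rmrp. The sign for Rmrp turned in 9 of 31 alternatives in all. Without Control 1 the differences were 0.20 and 0.13, and none of these passed the threshold. The bulk values cannot tell fewer cells of a type from less RNA per cell, which holds for each gene below.

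**Figure D1:**
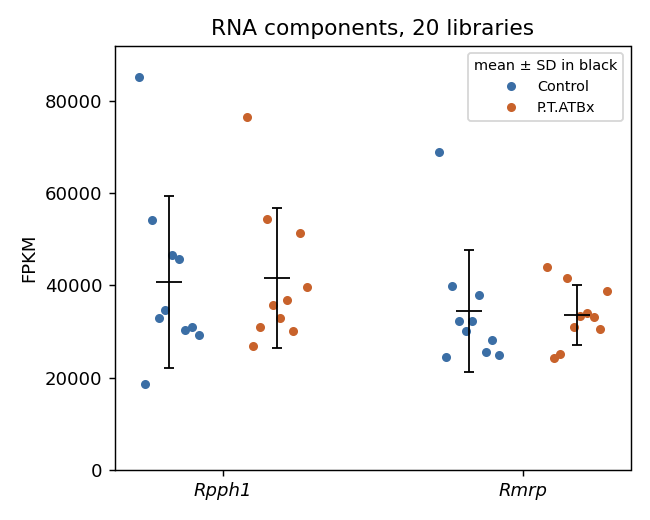
FPKM of Rpph1 and Rmrp in each of the 10 Control and 10 P.T.ATBx libraries, 1 point a library, with the group mean and SD. The groups overlap for both RNAs, and Control 1 stands highest at 85189 FPKM for Rpph1 and 69007 FPKM for Rmrp.

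The RNA components were among the most variable of the abundant transcripts. The residual SD of Rpph1 within groups on the log2 scale was larger than that of 97.6% of tested genes, and that of Rmrp larger than that of 95%. Among the 200 tested genes with the highest level, 5 were more variable than Rpph1 and 17 more variable than Rmrp. The coefficient of variation of Rpph1 was 45.7% in Control against 36.6% in P.T.ATBx, and that of Rmrp was 38.4% and 19.3%. Without Control 1 and P.T.ATBx 1, the highest Rpph1 library of each group, it was 30.4% and 25.2% for Rpph1 and 18.1% and 17.5% for Rmrp, so the larger Rmrp value in Control came with Control 1. Rpph1 took from 3.35% of the summed FPKM in Control 2 to 11.3% in Control 1, and Rmrp took from 4.27% in P.T.ATBx 2 to 9.17% in Control 1. FPKM divides by transcript length, and for RNAs this short the value depends on how the quantification tool corrects length, which is not given in the sources used here. The 3 further rows for RNase P RNA-like copies, Rprl1, Rprl2 and Rprl3, were listed at 0 in all 20 libraries, and whether reads of such copies were assigned to Rpph1 is not known from the table.

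Rpph1 and Rmrp were positively correlated across the libraries of Control on every scale tried, and in P.T.ATBx the result depended on the scale and on which libraries were included. In Control, Pearson's r of log2(FPKM + 1) was 0.925 (n = 10, permutation p = 2e-05, adjusted over the 2 groups 4e-05). Spearman's rho was 0.976 (permutation p = 1e-05, the smallest that 100000 resamples can give, adjusted 2e-05). Without Control 1 and Control 2, the libraries farthest from the median of Rpph1, r was 0.904 (n = 8, exact permutation p = 0.000918). In P.T.ATBx, r was 0.756 (n = 10, permutation p = 0.0113, adjusted 0.0113) and rho was 0.745 (permutation p = 0.0176, adjusted 0.0176). Without P.T.ATBx 1 and P.T.ATBx 4, r was 0.464 (n = 8, exact permutation p = 0.246), so on the FPKM scale the P.T.ATBx relation was not established without them. Leaving out the libraries farthest from the median also narrows the range of Rpph1, so a relation among the rest is not excluded. Leaving out P.T.ATBx 1 alone gave r = 0.647 (n = 9, exact permutation p = 0.0568). Without P.T.ATBx 4 alone, r was 0.716 (n = 9, exact permutation p = 0.0295).

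Because both RNAs weigh on the sum of a library, the relation was recomputed after rescaling each library to the same total (TPM scale). There r was 0.880 in Control (permutation p = 0.00077) against 0.566 in P.T.ATBx (permutation p = 0.0861). With the total taken without the RNA components, r was 0.907 in Control (permutation p = 5e-05) against 0.672 in P.T.ATBx (permutation p = 0.0338). The corresponding rho in P.T.ATBx was 0.576 on the TPM scale (permutation p = 0.0874) and 0.60 with the reduced total (permutation p = 0.0733). Without P.T.ATBx 1 and P.T.ATBx 9, the libraries farthest from the median of Rpph1 on these scales, r in P.T.ATBx was higher than with all 10. It was 0.736 on the TPM scale (n = 8, exact permutation p = 0.0353) and 0.789 with the reduced total (n = 8, exact permutation p = 0.0177). This combination was chosen after seeing the data. The libraries it leaves out also had the highest ratios of Rpph1 to Rmrp, 1.74 in P.T.ATBx 1 and 1.68 in P.T.ATBx 9. The rise in r is therefore no independent support for the relation. The r of Control was below 0.05 in its permutation p on each scale, with all libraries and without Control 1 and Control 2. Whether the strength of the relation differed between the groups was not tested. The permutation p-values set r against no relation, and they do not set this pair apart from other genes. Over the 20 libraries with group means removed, r between the RNAs was 0.865. On the same measure the small RNA Scarna6 reached 0.926 with Rpph1 and 0.921 with Rmrp. Other tested genes of at most 500 bases had a median r with Rpph1 of 0.433 within Control.

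**Figure D2:**
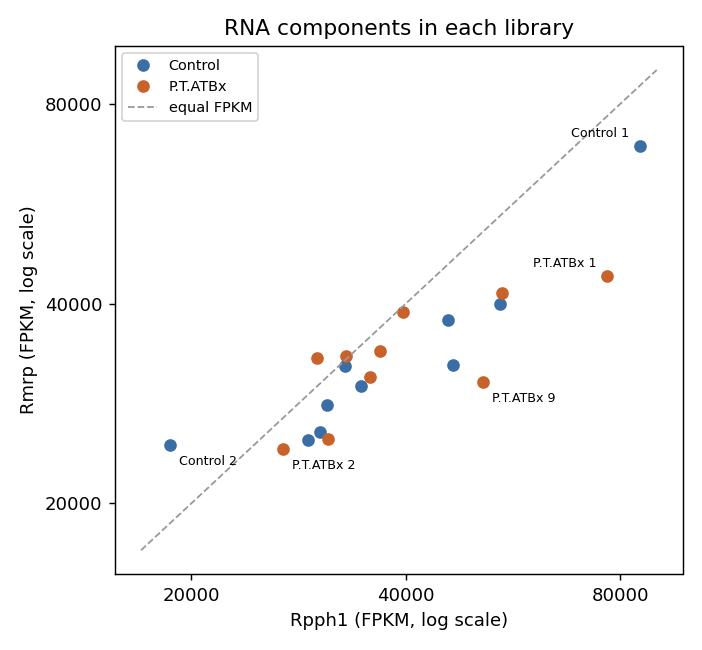
Rpph1 against Rmrp in FPKM on log axes, 1 point a library, with the dashed line marking equal values. Pearson's r of the log2 values is 0.925 in Control and 0.756 in P.T.ATBx, and 3 libraries lie on the side where Rmrp exceeds Rpph1.

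The proportion of the RNAs to each other was nearly level in most libraries. Rpph1 exceeded Rmrp in 9 of 10 Control libraries and in 8 of 10 of P.T.ATBx, and the order was the reverse in Control 2, P.T.ATBx 6 and P.T.ATBx 8. The ratio of Rpph1 to Rmrp in FPKM averaged 1.16 ± 0.185 in Control against 1.22 ± 0.283 in P.T.ATBx (SD, n = 10 each). It ran from 0.763 to 1.44 in Control and from 0.906 to 1.74 in P.T.ATBx, so the groups overlapped. The highest ratios were those of P.T.ATBx 1 and P.T.ATBx 9.

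The protein subunits were measured at levels between 0 and 39.2 FPKM. From the lowest to the highest library, the tested subunits spanned 1.27-fold (Pop4) to 1.77-fold (Rpp38), against 4.56-fold for Rpph1 and 2.86-fold for Rmrp. Pop4 (also Rpp29, which binds the RNA) had the highest median over the 20 libraries, 31.1 FPKM. Rpp30, a subunit of both enzymes, followed with a median of 30.6 FPKM. Pop7 (Rpp20, which pairs with Rpp25 on the RNA) had 29.4 and Pop5, the partner of Rpp30, had 26.9 FPKM. Neighbours among these 4 exchanged places: Pop4 exceeded Rpp30 in 11 of 20 libraries, Rpp30 exceeded Pop7 in 13 and Pop7 exceeded Pop5 in 13. Pop1, the largest protein of the complexes, had a median of 12.6 FPKM, and Pop5 exceeded it in 20 of 20 libraries. Rpp38, which belongs to the L7Ae family of RNA-binding proteins, had a median of 11.6 FPKM and lay below Pop1 in 14 of 20 libraries. Rpp40 had a median of 4.30 FPKM, below Rpp38 in 20 of 20 libraries, and Rpp25 lay below Rpp40 in all 20. In the RefSeq models of GRCm38.p6 the protein genes are spread over the genome, with Pop1 at chr15:34495311-34530653, Pop4 at chr7:38262812-38271393, Pop5 at chr5:115235588-115240972, Pop7 at chr5:137501439-137502429, Rpp25 at chr9:57504102-57505447, Rpp30 at chr19:36083689-36104773, Rpp38 at chr2:3326548-3332986 and Rpp40 at chr13:35895104-35911565. Pop5 and Pop7 share chromosome 5 and the others lie on separate chromosomes.

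Rpp25 was at or close to 0 in every library. The table lists it at 0 in 3 Control libraries and in 5 of P.T.ATBx, and its smallest value above 0 was 0.037 FPKM. Its highest value was 0.213 FPKM in Control 3 among Control libraries and 0.105 FPKM in P.T.ATBx 9 among P.T.ATBx libraries. The medians were 0.0485 and 0.0215 FPKM, and the groups overlapped. The difference of −0.06 on the log2(FPKM + 1) scale did not pass a two-sided permutation test (p = 0.147, n = 10 each). An entry of 0 can be a failed estimate, so no fold was computed. Its paralog Rpp25l averaged 17.5 ± 2.35 FPKM in Control against 17.2 ± 1.96 in P.T.ATBx (SD, n = 10 each), far above Rpp25 on the same per-length scale.

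**Figure D3:**
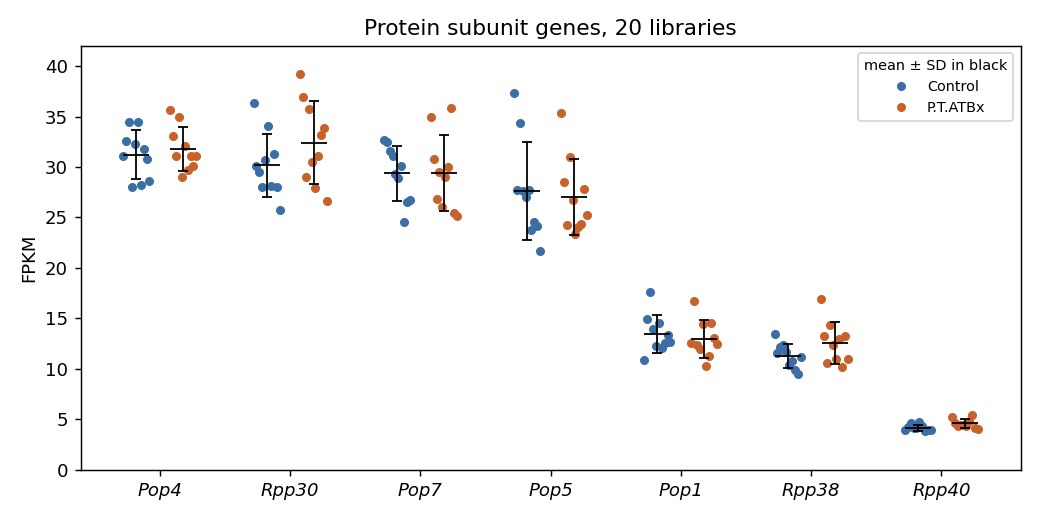
FPKM of the 7 tested protein subunits in each library, 1 point a library, by group, with the mean and SD in black. Pop4, Rpp30, Pop7 and Pop5 lie highest with overlapping values, Pop1 and Rpp38 have medians of 12.6 and 11.6 FPKM, and Rpp40 lies lowest at 4.30 FPKM.

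No protein subunit passed the threshold between the groups. Over all 12788 tested rows, 108 (0.845%) passed an adjusted p of 0.05, 59 of them higher (0.461%) and 49 lower (0.383%) in P.T.ATBx. Of the 9 tested components, 0 passed in limma, and 1 had an unadjusted p below 0.05, against 1738 tested rows (13.6%). Without Control 1 the table gave 104 higher and 89 lower calls, without Control 2 it gave 78 lower calls, without P.T.ATBx 4 it gave 38 and 31, and the TPM scale gave 20 and 29. The components called numbered 0 in each. At these shares, a count of 0 or 1 among 9 does not set the components apart from the table. The differences of the 9 ran from −0.05 to 0.13 on the log2(FPKM + 1) scale, with a median of 0.03 beside 0.0027 for all tested rows.

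Rpp40 was the component with an unadjusted p below 0.05. Its Control values had a lowest value of 3.81, a median of 4.11 and a highest value of 4.68 FPKM, and its P.T.ATBx values had 4.02, 4.46 and 5.46 FPKM. The groups overlapped, with 9 of 10 P.T.ATBx libraries above the Control median and the highest value in P.T.ATBx 8. The means were 4.17 ± 0.291 and 4.59 ± 0.457 FPKM (SD, n = 10 each), with a difference of 0.11 (SE 0.05, 95% interval 0.01 to 0.21, unadjusted p = 0.0314) that failed the correction in limma (adjusted p = 0.313).

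Rpp38 had the largest estimated difference of the 9 tested components, and it did not pass the threshold. Its lowest value, median and highest value were 9.53, 11.3 and 13.5 FPKM in Control, and 10.1, 12.7 and 16.9 FPKM in P.T.ATBx. The groups overlapped, the Control median was exceeded in 6 of 10 P.T.ATBx libraries, and P.T.ATBx 1 was highest. The difference was 0.13 (SE 0.08, 95% interval −0.02 to 0.29, limma adjusted p = 0.463), and without P.T.ATBx 1 it was 0.088. Rpp30 ranged from 25.8 to 36.3 FPKM in Control (median 29.8) and from 26.6 to 39.2 in P.T.ATBx (median 32.1). Its difference was 0.10 (SE 0.07, limma adjusted p = 0.586), and 7 of 10 libraries of P.T.ATBx exceeded the Control median.

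The remaining subunits lay close to equality. Pop1 ranged from 10.9 to 17.6 FPKM in Control (median 13.0) and from 10.3 to 16.8 in P.T.ATBx (median 12.5), with a difference of −0.05 (SE 0.08, limma adjusted p = 0.814). Pop4 ranged from 28.0 to 34.5 FPKM in Control (median 31.4) and from 29.0 to 35.6 in P.T.ATBx (median 31.1), with a difference of 0.03 (SE 0.05, limma adjusted p = 0.850). These groups overlapped, and Pop4 had the smallest span of all tested components, 1.27-fold from lowest to highest library. Pop5 ranged from 21.7 to 37.3 FPKM in Control (median 27.3) and from 23.4 to 35.3 in P.T.ATBx (median 26.0), with a difference of −0.02 (SE 0.09, limma adjusted p = 0.950). Pop7 ranged from 24.6 to 32.6 FPKM in Control (median 29.7) and from 25.2 to 35.9 in P.T.ATBx (median 29.3), with a difference of −0.0049 (SE 0.07, limma adjusted p = 0.986). The 95% intervals of Pop1, Pop4, Pop5 and Pop7 all lay within −0.22 and 0.16, and those of the RNAs were wider, which limits what could be detected for Rpph1 and Rmrp.

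**Figure D4:**
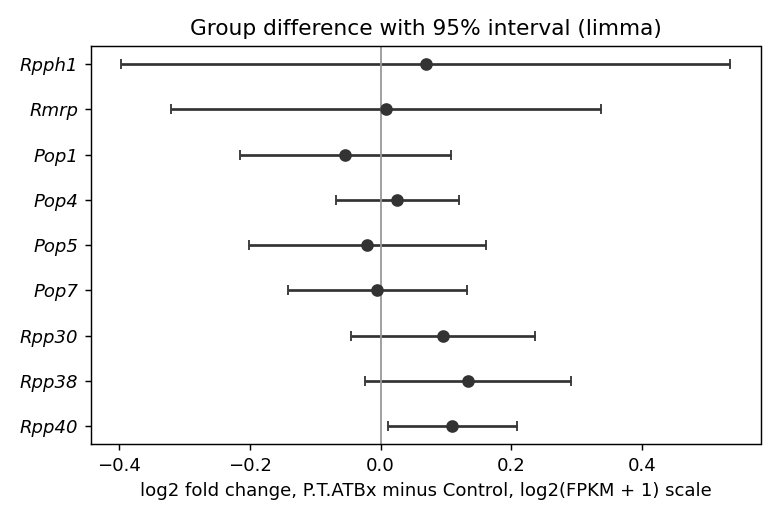
Difference in log2(FPKM + 1), P.T.ATBx minus Control, for the 9 tested components, with 95% intervals. The intervals of Rpph1 (−0.40 to 0.53) and Rmrp (−0.32 to 0.34) are the widest, and that of Rpp40 (0.01 to 0.21) is the one that does not reach 0 before adjustment.

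The RNA components and the protein subunits did not keep a fixed proportion across libraries. The mean log2 value of the RNAs minus that of the 7 tested subunits was 10.9 ± 0.469 in Control (range 10.1 to 11.9) against 10.9 ± 0.320 in P.T.ATBx (range 10.3 to 11.3; SD, n = 10 each). Both ends of the range came from Control, Control 2 at the low end and Control 1 at the high end. The group means differed by −0.0021, against a pooled SD of 0.40 between libraries.

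Subunits differed in how far they followed the RNAs, given here as Pearson's r of log2(FPKM + 1) over 20 libraries with group means removed, as a description. With Rpph1, r was 0.70 for Pop5, 0.59 for Rpp38 and 0.51 for Rpp30. It was 0.28 for Pop4, 0.22 for Pop7, 0.13 for Rpp40 and −0.26 for Pop1. With Rmrp, Pop5 was again highest at 0.66 and Pop1 lowest at −0.35. Without Control 1 and P.T.ATBx 1, the libraries with the highest Rpph1 (an alternative chosen after seeing the data), the values with Rpph1 were 0.42 for Pop5, 0.30 for Rpp38 and 0.16 for Rpp30. On the TPM scale they were 0.30 for Pop5, 0.05 for Rpp38 and −0.19 for Rpp30, and the signs of Pop4 (−0.60), Pop7 (−0.53) and Rpp40 (−0.61) turned. The total on that scale includes Rpph1 itself. There, tested genes of 2001 to 4000 bases, the length class of Pop4, had a median r with Rpph1 of −0.545. The median was −0.659 at 4001 to 8000 bases, the class of Rpp40, and 0.0173 at 501 to 1000 bases, the class of Pop7. Among themselves, all 21 pairs of the 7 tested subunits had a positive r on the FPKM scale, from 0.0062 to 0.78 with a median of 0.42. The highest were Pop5 with Rpp38 and Pop7 with Rpp40, both at 0.78, and all of these values share the same 20 libraries and their scaling. No share of positive r over all pairs of tested genes was computed, and the 21 pairs were not computed on the TPM scale. The count therefore does not set the subunits apart from other genes.

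Transcript length moved with these values, in a comparison chosen after seeing the data. Over the 7 subunits, the rank correlation between the length of the longest GENCODE transcript and r with Rpph1 was −0.571. The longest transcript has 1587 bases for Pop5 and 1042 for Rpp38, against 3395 for Pop1 and 4380 for Rpp40, while Pop7 with 988 bases had a low r. Over the tested genes of known length, the median r with Rpph1 was 0.529 for the 531 genes of 501 to 1000 bases. It was 0.327 for the 2120 genes of 1001 to 2000 bases and 0.0648 for the 5169 genes of 2001 to 4000 bases. It was −0.277 for the 4037 genes of 4001 to 8000 bases and −0.523 for the 666 genes over 8000 bases. The 175 genes of at most 500 bases had a median of 0.261. Rmrp gave the same order of classes, from 0.517 at 501 to 1000 bases to −0.622 over 8000 bases. The order from 501 bases upward held within Control (0.561 to −0.615) and within P.T.ATBx (0.56 to −0.416), and without Control 1 and P.T.ATBx 1 it was narrower (0.24 to −0.217). On the TPM scale the medians with Rpph1 ran from 0.0173 to −0.685 over the same classes. The part of transcript length in the relation of Rpph1 to Rmrp, and in those of the subunits, was not tested. The median difference between the groups lay between −0.02 and 0.01 in every length class.

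**Figure D5:**
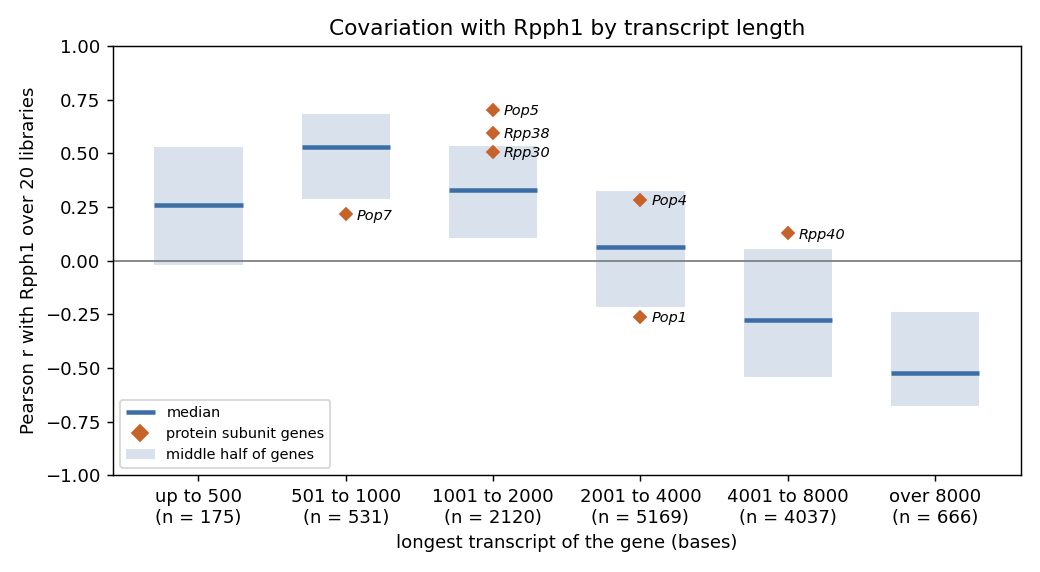
Pearson's r with Rpph1 over 20 libraries, group means removed, for tested genes in 6 classes of transcript length in bases, with the median as a line, the middle part from the lower to the upper quartile as a bar, and the 7 tested protein subunits as diamonds. The median falls from 0.529 at 501 to 1000 bases to −0.523 over 8000 bases, and the diamonds of Pop5, Rpp38 and Rpp40 lie above the bars of their classes and those of Pop7 and Pop1 below.

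The genes whose pattern was most like that of the RNAs, by r over the 20 libraries with group means removed, included other short noncoding RNAs. For both Rpph1 (0.926) and Rmrp (0.921) the first was Scarna6, a small Cajal body RNA that averaged 445 FPKM in Control against 431 in P.T.ATBx. For Rpph1 it was followed by Romo1 (a mitochondrial protein, 0.909), the histone gene Hist1h4h (0.897), Cox8a (a subunit of cytochrome c oxidase, 0.894) and the ribosomal protein gene Rpl27a (0.893). For Rmrp it was followed by Krtcap2 (0.897), the small nucleolar RNA Snord17 (0.892), Tmem147 (0.888) and the small nucleolar RNA Snora74a (0.880). On the TPM scale the values with Rpph1 were 0.880 for Scarna6, 0.790 for Hist1h4h, 0.780 for Romo1, 0.760 for Rpl27a and 0.487 for Cox8a. Those with Rmrp were 0.860 for Scarna6, 0.800 for Snord17, 0.780 for Snora74a, 0.560 for Tmem147 and 0.469 for Krtcap2. These values were selected as the highest of the tested genes and carry no test. Between Rpph1 and Rmrp themselves, r was 0.865 on the FPKM scale, below each FPKM-scale value listed here, and 0.771 on the TPM scale.

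The neighbours on the plus strand did not pass the threshold. Parp2 averaged 15.8 ± 0.843 FPKM in Control against 16.7 ± 0.856 in P.T.ATBx (SD, n = 10 each), with a difference of 0.07 (SE 0.04, limma adjusted p = 0.384), and its r with Rpph1 was 0.30. That value was 0.0089 without Control 1 and P.T.ATBx 1 and −0.69 on the TPM scale. Tested genes of 2001 to 4000 bases, the length class of Parp2, had a median r with Rpph1 of 0.0648 on the FPKM scale and −0.545 on the TPM scale. Ccdc107 averaged 17.9 ± 2.93 and 18.9 ± 3.04 FPKM, a difference of 0.07 (SE 0.09, limma adjusted p = 0.773). Over the 20 libraries its r was 0.75 with Rmrp and 0.75 with Rpph1, which lies on another chromosome, and both were 0.39 on the TPM scale. The groups differed in this: within Control r was 0.845 with Rmrp and 0.663 with Rpph1, and within P.T.ATBx 0.696 and 0.870. Without Control 1 and P.T.ATBx 1 the values were 0.48 with Rmrp and 0.50 with Rpph1. The longest Ccdc107 transcript has 942 bases. Tested genes of 501 to 1000 bases had a median r of 0.529 with Rpph1 and 0.517 with Rmrp on the FPKM scale. On the TPM scale these medians were 0.0173 and 0.0031, below the values of Ccdc107.

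Genes that act with the enzymes were counted over whole lists, and in each list 0 genes passed the threshold in limma. Over all tested rows 6585 of 12788 differences (51.5%) were positive and 13.6% had an unadjusted p below 0.05, beside which the counts below stand. Of 3 tested RNase P and MRP proteins outside the 10 components, 2 differences were positive, with a median of 0.02, and 1 had an unadjusted p below 0.05. That was Rpp21, an RNase P subunit, with 27.3 ± 1.67 FPKM in Control against 29.9 ± 3.25 in P.T.ATBx (SD, n = 10 each), with a difference of 0.12 (limma adjusted p = 0.317). Rpp14 differed by 0.02 and Rpp25l by −0.02. Of the 18 subunits of RNA polymerase III, the enzyme that makes both RNAs, 13 differences were positive and 5 negative, with a median of 0.04 and 1 unadjusted p below 0.05. The smallest p-values were those of Polr3gl (0.19, limma adjusted p = 0.125), Polr3f (0.06), Polr2k (0.19) and Polr3g (0.09). Over these 18 subunits, r with Rpph1 ran from −0.886 to 0.666, with a median of 0.263. The lowest was that of Polr3b, a core subunit of the polymerase chosen after its values were seen. It had an r of −0.886 with Rpph1 and −0.878 with Rmrp. Its longest transcript has 4975 bases, and tested genes of 4001 to 8000 bases had a median r with Rpph1 of −0.277.

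Among 19 initiation factors and regulators of RNA polymerase III, 15 differences were positive and 4 negative, with a median of 0.02 and 1 unadjusted p below 0.05. Snapc3, part of the complex that binds the upstream promoters of small RNA genes, had 19.3 ± 1.53 FPKM in Control against 21.2 ± 1.10 in P.T.ATBx (SD, n = 10 each). Its difference was 0.13 (limma adjusted p = 0.150), followed by Snapc5 at 0.09, Gtf3c4 at −0.05 and Gtf3c6 at 0.07. Of 12 tested genes of transfer RNA end processing and splicing, 8 differences were positive and 4 negative, with a median of 0.03 and 2 unadjusted p-values below 0.05. These were Ssb (the La protein, which binds the 3′ end of new RNA polymerase III transcripts), with 0.11 (limma adjusted p = 0.267), and Elac1, a 3′ end nuclease, with 0.10 (limma adjusted p = 0.319). Ddx1 differed by 0.05 and Elac2, which cuts the 3′ trailer of precursor transfer RNAs, by 0.06.

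Mitochondria cut transfer RNA leaders with a separate RNase P that contains no RNA, and its 3 subunits differed by 0.08 (Trmt10c), 0.03 (1110008L16Rik, the gene also named Prorp) and 0.03 (Hsd17b10). Of 26 tested pre-rRNA processing factors, 16 differences were positive and 10 negative, with a median of 0.02 and 1 unadjusted p below 0.05. That was Npm1, an abundant nucleolar protein, at 1091 ± 57.2 FPKM in Control against 1175 ± 94.99 in P.T.ATBx (SD, n = 10 each; 0.10, limma adjusted p = 0.342). Nhp2l1 differed by 0.11, Nol9 by −0.07 and Rrp1b by −0.08. Of 5 tested other short noncoding RNAs, 3 differences were positive and 2 negative, and 0 had an unadjusted p below 0.05 in limma. Terc, the telomerase RNA, averaged 39.4 ± 5.15 FPKM in Control against 34.5 ± 9.24 in P.T.ATBx, a difference of −0.22 (limma adjusted p = 0.460). Rnu12, the U12 spliceosomal RNA, averaged 722 ± 395 and 919 ± 311 FPKM, a difference of 0.43 (limma adjusted p = 0.486). Rnu11 had medians of 16.5 and 41.7 FPKM and a 0 in 1 Control library, and Rnu73b had medians of 65.4 and 28.4 FPKM with a 0 in 2 Control libraries and in 5 of P.T.ATBx.

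Read totals are unknown, and the spacing of low values gave a relative depth between 0.809 and 1.25. Over 20 libraries with group means removed, the r of relative depth with Rpph1 was −0.26 and with Rmrp −0.34. The upper quartile of FPKM gave −0.46 and −0.48, the first principal component −0.49 and −0.55, and the second 0.53 and 0.55. The principal components were computed on the tested genes other than the 10 components. One library, P.T.ATBx 1, stood apart on the second of them (robust z of 4.19 against a limit of 3.5). The labels call the samples cancer cells of tumour tissue. Of 10 epithelial markers, 5 had a median of at least 1 FPKM, and Krt20, Cdx2, Vil1, Lgals4 and Muc2 lay below it. The summed level of all 10 epithelial markers ran from 4.89 to 179 FPKM in Control and from 13.0 to 54.0 in P.T.ATBx. Of 8 leukocyte markers 7 had a median of at least 1 FPKM, with sums of 175 to 255 and 181 to 279 FPKM, and so had 4 of 4 fibroblast markers, with sums of 1041 to 1446 and 889 to 1129 FPKM. Markers of adjacent tissue varied more widely. Adipocyte sums ran from 1.44 to 189 FPKM in Control and from 4.71 to 48.9 in P.T.ATBx. Skeletal muscle sums ran from 0.067 to 45.3 FPKM in Control and from 0.046 to 28.1 in P.T.ATBx. The part of cell mixture and depth in the levels of the components was not tested.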

How the data were processed

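The authors deposited 1 table of FPKM for 20 libraries (10 Control, 10 P.T.ATBx), with an Entrez number and a symbol in each of 23402 rows. The build was mm10, per the submitters' processing notes, and RNA and library kits are per the labels' protocols. Aligner, quantification tool and annotation: not given in the sources used here. FPKM is not a count, read totals are unknown, and intervals from depth were not computed. The upper quartile of FPKM was nearly equal in all libraries (13.4 to 14.1), so a scaling between libraries may have preceded deposit.

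Values were analysed as log2(FPKM + 1), which understates changes of low genes. Rows averaging 0.5 FPKM or more (12788) were fitted in limma 3.58.1 (R 4.3.3), with group as the only term, robust and trended moderation, two-sided, with Benjamini-Hochberg adjustment over all tested rows and a threshold of 0.05. The script was tested on simulated data. Relations used permutation tests with 100000 resamples, or all orders below 10 libraries. The genes named were the 10 components, the neighbours Parp2 and Ccdc107, the 4 smallest p-values of each list, and the 5 genes most alike in pattern to each RNA, leaving out predicted genes. Polr3b, Rprl1, Rprl2 and Rprl3 were named outside this rule, after their values were seen. The components and lists were chosen with earlier results of these data known. Sequences, coordinates and transcript lengths came from GENCODE M21 and RefSeq tables of GRCm38.p6, and lengths were known for 99.3% of the tested rows other than the RNAs. Alternatives were other pseudocounts, filters, scalings, moderation, a replicate block and each library left out. Proteins were not analysed here.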

Additional observations from a re-analysis of the deposited data

Results flagged for a closer look

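Among 20 sets of values (10 components in 2 groups of 10 libraries, on the log2(FPKM + 1) scale), 2 held a library far from the others, where chance flags about 1 in 20. For Rmrp in Control, the gap between Control 1 at 69007 FPKM and the next library at 39920 FPKM was 0.528 of the whole range, above Dixon's 95% critical value for 10 values. For Rpp25 in P.T.ATBx, the gap between P.T.ATBx 9 at 0.105 FPKM and the next library at 0.0523 FPKM was 0.488 of the range, in a gene listed at 0 in 5 of the 10 libraries.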

How the results depend on the processing

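In all 31 alternatives 0 protein subunits passed the threshold, and the lowest limma adjusted p was 0.624 for Rpph1, 0.596 for Rmrp, 0.246 for Rpp38 and 0.234 for Rpp40. The unadjusted p of Rpp40 rose above 0.05 in 10 of the 31. Under quantile normalization Rpph1 gave −0.0285, fixed by construction: the RNAs hold the top 2 ranks in all 20 libraries, take 2 values, and swap ranks in 1 Control and 2 P.T.ATBx libraries. Without P.T.ATBx 1, the library that stood apart, those of Rpph1, Rmrp and Hsd17b10 were −0.0372, −0.0375 and −0.00723. The cause of these turns was not tested. Leaving out 1 library at a time gave −0.0435 to 0.20 for Rpph1, −0.0384 to 0.128 for Rmrp, −0.0628 to 0.0287 for Pop5, −0.037 to 0.018 for Pop7, −0.0533 to 0.00725 for Rpp25l and −0.00723 to 0.0678 for Hsd17b10. The relation of Rpph1 to Rmrp in P.T.ATBx ran from 0.647 to 0.838 in this way, and was 0.566 on the TPM scale and 0.464 without the 2 libraries farthest from the median. Both changes together, chosen after seeing the data, gave 0.736, and 0.789 with the sum taken without the RNAs. Over all genes, 20 higher and 29 lower passed on the TPM scale, and leaving out 1 library gave 38 (without P.T.ATBx 4) to 104 (without Control 1) higher and 31 to 89 lower, for the same libraries. Without Control 2, 78 were lower.

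The groups share replicate numbers, but same-numbered libraries had correlations of their deviations from −0.315 to 0.393, above 0.1 in 5 of 10 pairs, so the numbers were not taken to pair them. With the replicate number as a block the differences were the same, 0.069 for Rpph1 (limma adjusted p = 0.860) and 0.0085 for Rmrp (0.983), and 65 genes were higher and 59 lower. Unknown read totals and an unknown length correction limit the levels of the short RNAs, and Rpp25 is listed at 0 in 8 libraries.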
